A study of Homo sapiens with 3 samples.

Results

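The enzymes described are those that make and use ketone bodies. They are the rows of the deposited gene table whose symbol is OXCT1, OXCT2, BDH1, BDH2, HMGCLL1, ACAT1 or AACS. All 7 symbols were found once among the 29960 genes of the table. RNA was sequenced from cells of 5637, an established bladder cancer line that served as the untreated wild-type parental group. It was compared with a gemcitabine-resistant derivative of the same line, which the labels attribute to acute and the study's methods to continuous, stepwise gemcitabine exposure, and which was then cultured without the drug. The labels give both groups as untreated, both were grown in RPMI medium with serum, and the methods describe the sequenced material as single-cell clones. Labels were available for 3 libraries, 1 parental and 2 resistant, so a resistant library stands for 1 clone and the parental group for a single clone.

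Ketone bodies, β-hydroxybutyrate (βHB) and acetoacetate, are made from acetyl-CoA in mitochondria, mainly in the liver, and serve as fuel elsewhere. In ketogenesis, ACAT1 joins acetyl-CoA units to acetoacetyl-CoA, further steps release acetoacetate from it, and BDH1 reduces acetoacetate to βHB. In ketolysis, BDH1 oxidizes βHB, OXCT1 transfers CoA from succinyl-CoA to acetoacetate, and ACAT1 splits the product back to acetyl-CoA. AACS opens a cytosolic route that activates acetoacetate for lipid and sterol synthesis.

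Libraries held 14475531 reads on genes for parental clone 1, 15836788 for resistant clone 1 and 17461941 for resistant clone 2. Reads were scaled to CPM (each count over the library total in CPM units, after edgeR's TMM scaling), and intervals given for a CPM or a ratio of CPM are exact 95% intervals that cover counting error only. Epithelial identity was checked with 13 urothelial and epithelial markers, whose summed level was 9794 CPM in the parental library and 7052 and 7338 CPM in the resistant libraries. Most of that sum came from KRT19, KRT8 and KRT7 in every library, so it says little about the other markers. Of the 10 tested markers, 2 passed the test, KRT5 and UPK1B, both lower in the resistant clones. The late urothelial marker UPK3A had no read. UPK1A had 3, 1 and 2 reads and UPK2 had 3, 9 and 5 reads, and neither was tested. Hepatocyte markers, of which 3 of 5 were in the table, summed to at most 0.345 CPM. The list of blood, endothelial and stromal markers summed to 113.6, 97.5 and 62.1 CPM, nearly all of it from COL1A1. Their part in the values of the enzymes was not tested.

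OXCT2 is a copy of OXCT1 with 1 exon, against 17 exons in OXCT1, and a pseudogene of OXCT2, OXCT2P1, lies near it on chromosome 1. This pseudogene was added after its values were seen, because its sequence decides how far reads of OXCT2 can be told from it. The coding sequences of OXCT2 and OXCT1 were identical in 72.9% of aligned positions, with a longest identical run of 19 bases. OXCT2 and OXCT2P1 were identical in 98.4%, with a longest identical run of 623 bases. No stretch of 50 bases of the OXCT2 coding sequence occurred in OXCT1, whereas 82.1% of such stretches occurred unchanged in OXCT2P1. The stretch of 60 bases in which OXCT2 is most like OXCT1 is shown for the 3 genes, from GENCODE transcripts on GRCh38, 5′ to 3′, with capitals for bases unlike those of OXCT2. It lies at chr1:39770002-39770061 on the minus strand for OXCT2, at chr1:39516131-39516190 on the plus strand for OXCT2P1, and across spliced exons between 41762186 and 41794047 of chromosome 5, minus strand, for OXCT1.
OXCT1: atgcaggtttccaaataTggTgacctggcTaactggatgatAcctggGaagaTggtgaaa
OXCT2: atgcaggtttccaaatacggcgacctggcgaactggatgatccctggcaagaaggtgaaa
OXCT2P1: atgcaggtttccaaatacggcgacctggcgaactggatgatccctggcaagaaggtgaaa
OXCT1 differs from OXCT2 at 6 of the 60 bases, and OXCT2P1 at 0. Within the coding sequence, reads of OXCT1 are therefore separable from those of its copy, while reads within stretches that OXCT2 and OXCT2P1 share are not. The untranslated parts of OXCT1 and OXCT2 were not compared.

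Which of these enzymes was read, and how strongly, was compared first by FPKM, the authors' count scaled by gene length and library total, since only values per length can be compared between genes. OXCT1 was the highest, at 10.7 FPKM in the parental library and 13.1 and 12.7 FPKM in resistant libraries 1 and 2. AACS followed with 8.37, 10.3 and 7.08 FPKM, and BDH1 with 4.52, 8.81 and 9.67 FPKM, in the same order of libraries. The lowest OXCT1 library lay above the highest AACS library, whereas the ranges of AACS and BDH1 overlapped, as did those of BDH1 and ACAT1.

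ACAT1 was read at 2.51, 4.81 and 3.53 FPKM and BDH2 at 2.33, 2.11 and 1.30 FPKM. OXCT2 stayed at or below 0.282 FPKM, and HMGCLL1, a lyase that can release acetoacetate, was listed at 0 in the parental library and in resistant library 2, and at 0.0748 FPKM in resistant library 1. Among the 14846 genes tested, OXCT1 lay at percentile 62.4 of FPKM in the parental library and at 66.1 and 66.2 in the resistant libraries. In all 3 libraries the enzymes of ketolysis, OXCT1, BDH1 and ACAT1, were thus read, while OXCT2 and HMGCLL1 were near the limit of detection. The exact 95% intervals of HMGCLL1 in the libraries without a read reached up to 0.262 CPM in the parental library and 0.212 CPM in resistant library 2.

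**Figure D1:**
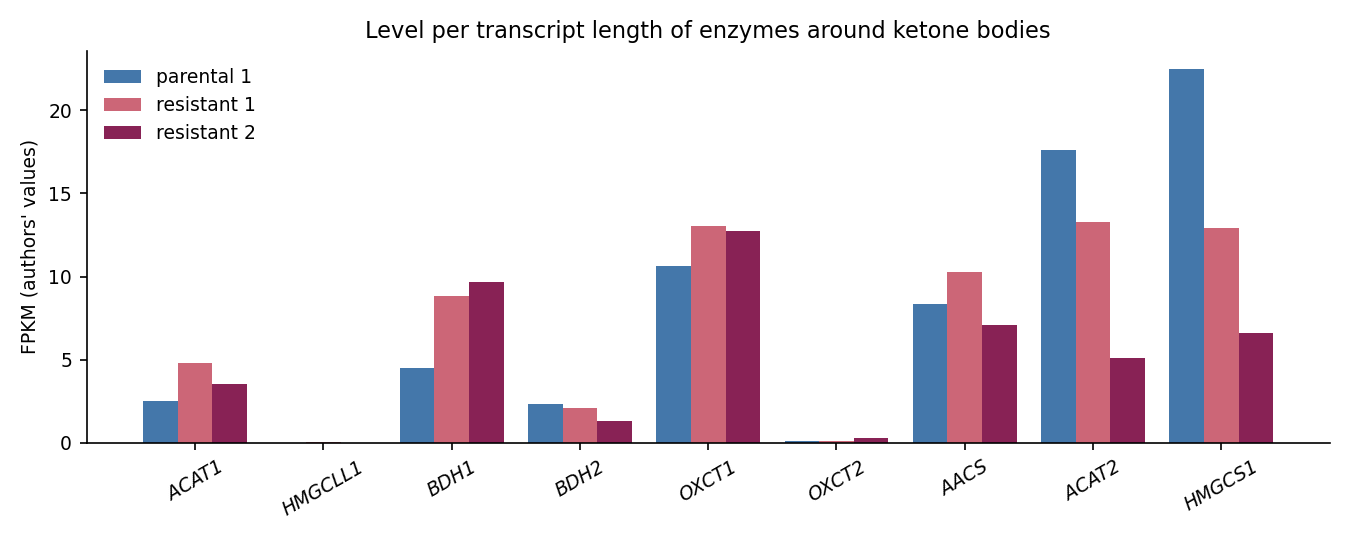
Bars give the authors' FPKM (vertical axis) of 9 enzymes, the 7 ketone body enzymes and the cytosolic ACAT2 and HMGCS1, in parental library 1, resistant library 1 and resistant library 2, 1 value per library and no error. OXCT1 stands at 10.7 to 13.1 FPKM in the 3 libraries, and HMGCLL1 and OXCT2 are close to the axis.

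The question of the comparison was which of these genes differ between gemcitabine-resistant and parental clones. BDH1, which interconverts βHB and acetoacetate, had the largest difference of the tested enzymes, with a level 1.97 times higher in the resistant libraries. BDH2, AACS, ACAT1 and OXCT1 differed less, and their 95% intervals included no difference. Of the 7 enzymes, 5 had enough reads to be tested, and 0 of the 5 had an adjusted p under 0.05 by edgeR's quasi-likelihood test or by DESeq2. Over all 14846 genes edgeR called 91, or 0.613%, of which 21 were higher (0.141%) and 70 lower (0.472%), and DESeq2 called 248, or 1.67%. At an unadjusted p under 0.05, 1 of the 5 was called by edgeR, against 9.58% of all genes (4.69% higher and 4.88% lower), and 1 of the 5 by DESeq2, against 7.27% of all genes.

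The single parental library shows no spread of its own, so both tools assume that it varies like the resistant clones. A gene's own spread comes from 2 clones, and both tools combine it with a spread shared across genes. In edgeR the shared part had the weight of a median of 7.34 degrees of freedom. SE and p-values are therefore not a measure of each gene's own spread between the 2 clones. In bulk RNA, fewer cells with a transcript and less of it per cell cannot be told apart. In CPM, both resistant libraries lay above the parental library for 3 of the 5 tested enzymes, against 35.2% of all genes, and below it for 1, against 34.5%. The resistant libraries were thus on the same side of the parental library for 4 of the 5, against 69.6% of all genes. The median log2 fold change of the 5 was 0.22, beside 0.03 over all genes tested. These shares are a description of 5 genes, with no test of them as a group.

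**Figure D2:**
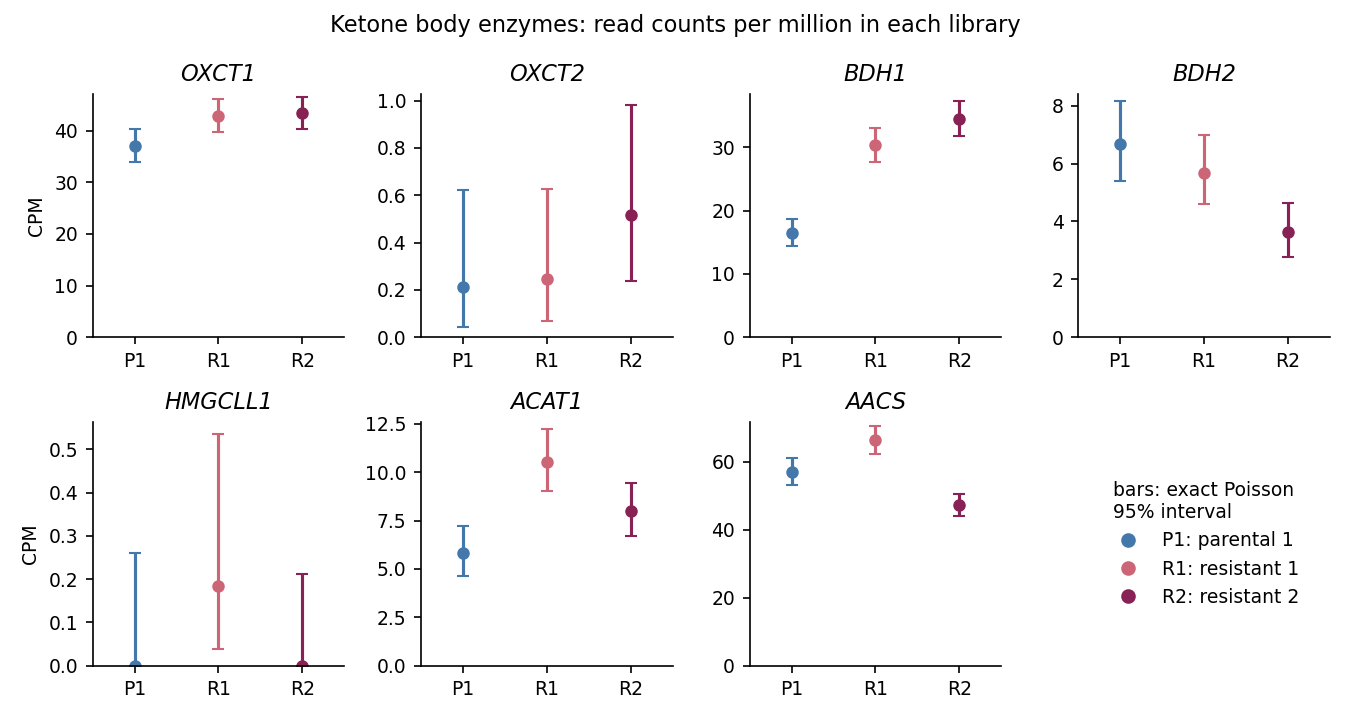
Points give the CPM (vertical axis, a scale of its own in each panel, from 0) of each of the 7 enzymes in parental library 1 (P1) and resistant libraries 1 and 2 (R1, R2), with bars for the exact 95% Poisson interval of the count. For BDH1 both resistant libraries, at 30.3 and 34.5 CPM, lie above the parental library at 16.5 CPM, while for AACS they lie on either side of it.

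OXCT1 (ENSG00000083720, chromosome 5, 41730167 to 41870621, minus strand, hg19), the CoA transferase that commits acetoacetate to oxidation, had 523 reads in the parental library and 701 and 753 in the resistant libraries. These correspond to 37.1 CPM (34.0 to 40.4), 42.9 CPM (39.8 to 46.2) and 43.3 CPM (40.3 to 46.6). Both resistant libraries were slightly above the parental library, and they differed from each other by less than counting error, with a ratio of 1.01 (0.910 to 1.12). Against the parental library the ratio was 1.16 (1.03 to 1.30) in resistant library 1 and 1.17 (1.04 to 1.31) in resistant library 2, which compares libraries and not conditions.

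In the fit across all genes the log2 fold change of OXCT1 was 0.22 with an SE of 0.35 (edgeR's quasi-likelihood test, adjusted p = 0.932). Its 95% interval ran from -0.58 to 1.01, which includes no difference as well as differences in either direction. The authors' group means, in a design of 3 clones per group that takes in the labelled libraries, gave the opposite direction. They were 700.4 scaled counts in the parental group and 644.9 in the resistant group, a log2 ratio of -0.12. An antisense gene, OXCT1-AS1, overlaps OXCT1 by 490 bases and was given 0, 3 and 2 reads, and since the strand setting is not given in the sources used here, reads of the pair cannot be told apart within the overlap.

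BDH1 (ENSG00000161267, chromosome 3, 197236654 to 197300194, minus strand), the mitochondrial βHB dehydrogenase, had 232 reads in the parental library and 495 and 599 in the resistant libraries. Its levels were 16.5 CPM (14.4 to 18.7), 30.3 CPM (27.7 to 33.1) and 34.5 CPM (31.8 to 37.4). Both resistant clones were above the parental clone by more than counting error, at ratios of 1.84 (1.57 to 2.16) and 2.10 (1.799 to 2.45), and resistant library 2 was above resistant library 1 at a ratio of 1.14 (1.01 to 1.28). The log2 fold change was 0.98 with an SE of 0.39 and a 95% interval from 0.09 to 1.86. Its unadjusted p was 0.034 and its adjusted p 0.466 (edgeR's quasi-likelihood test), so it did not pass over all genes. In the authors' group means BDH1 was higher in the resistant group, at 409.3 against 271.6 scaled counts, a log2 ratio of 0.59. Those means take in the labelled libraries, so the shared direction is not independent support. The FPKM of BDH1 relative to that of OXCT1 was 0.424 in the parental library and 0.675 and 0.76 in the resistant libraries.

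BDH2 (ENSG00000164039, chromosome 4, 104000592 to 104021040, minus strand) is a cytosolic enzyme named as the type 2 βHB dehydrogenase and also known for making a mammalian siderophore. It had 94, 93 and 63 reads, or 6.66 CPM (5.38 to 8.15) in the parental library and 5.69 CPM (4.59 to 6.97) and 3.63 CPM (2.79 to 4.64) in the resistant libraries. Resistant library 2 was the lowest, and resistant library 1 overlapped the parental library in counting error. The log2 fold change was -0.52 with an SE of 0.51 and a 95% interval from -1.68 to 0.65 (edgeR's quasi-likelihood test, adjusted p = 0.86). The authors' group means were 88.2 and 70.6 scaled counts in the parental and the resistant group, a log2 ratio of -0.32. That value too is not independent of the labelled libraries. SLC9B2 overlaps BDH2 on the same strand over 6395 bases, with 40, 25 and 37 reads, and how reads in the overlap were assigned is not given in the sources used here. The FPKM of BDH1 was 1.94 times that of BDH2 in the parental library, 4.17 times in resistant library 1 and 7.46 times in resistant library 2.

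ACAT1 (ENSG00000075239, chromosome 11, 107992243 to 108018503, plus strand), the mitochondrial thiolase used at both ends of the pathway, had 82, 172 and 139 reads. Its levels were 5.81 CPM (4.62 to 7.22) in the parental library and 10.5 CPM (9.01 to 12.2) and 8.002 CPM (6.73 to 9.45) in the resistant libraries. Both resistant libraries were above the parental library, and resistant library 2 was below resistant library 1 by more than counting error, at a ratio of 0.76 (0.603 to 0.956). The log2 fold change was 0.67 with an SE of 0.48 and a 95% interval from -0.42 to 1.77 (edgeR's quasi-likelihood test, adjusted p = 0.755). As for OXCT1, the authors' group means pointed the other way, with 162.1 scaled counts in the parental group and 146.9 in the resistant group, a log2 ratio of -0.14. For OXCT1 and ACAT1, the direction thus differed between the 3 labelled libraries, where neither gene passed the test, and the group means, which were not tested.

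AACS (ENSG00000081760, chromosome 12, 125549925 to 125627873, plus strand), which activates acetoacetate in the cytosol, had 804, 1083 and 821 reads. The parental library, at 57.0 CPM (53.1 to 61.1), lay between resistant library 1 at 66.3 CPM (62.4 to 70.4) and resistant library 2 at 47.3 CPM (44.1 to 50.6). Resistant library 2 was at a ratio of 0.713 (0.650 to 0.781) to resistant library 1, while the ratios to the parental library were 1.16 and 0.829. The log2 fold change was -0.01 with an SE of 0.36 and a 95% interval from -0.84 to 0.83 (edgeR's quasi-likelihood test, adjusted p = 0.999). The authors' group means were 823.5 scaled counts in the parental and 821.9 in the resistant group.

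**Figure D3:**
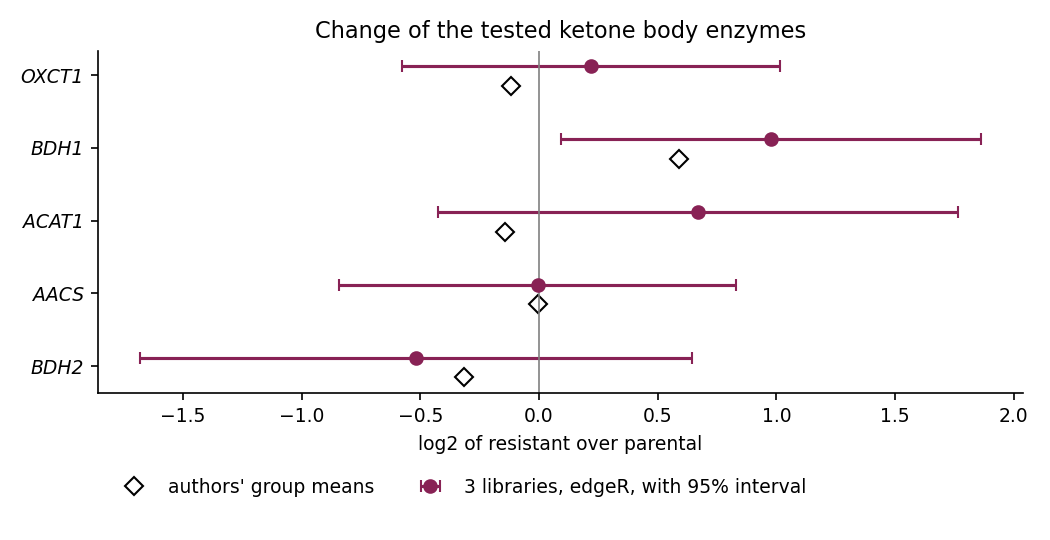
Filled points give edgeR's log2 fold change of resistant over parental (horizontal axis) for the 5 tested enzymes in the 3 libraries, with 95% intervals, and open diamonds the log2 ratio of the group means given by the authors (pseudocount 1). The interval of BDH1, from 0.09 to 1.86, is the only one of the 5 that leaves out 0, and for OXCT1 and ACAT1 the diamonds lie on the other side of 0 from the points.

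OXCT2 (ENSG00000198754, chromosome 1, 40235195 to 40237020, minus strand), known for expression in testis, had 3, 4 and 9 reads and was not tested. The resistant libraries together were at a ratio of 1.81 to the parental library, with an interval from 0.498 to 9.92 that holds no direction. OXCT2 lies within BMP8B on the same strand, a gene with 9, 12 and 12 reads. The pseudogene OXCT2P1 had 8, 40 and 24 reads, more than OXCT2 in every library, and a log2 fold change of 1.74 with an SE of 0.81 (edgeR's quasi-likelihood test, adjusted p = 0.567). Because of the sequence they share, OXCT2 and OXCT2P1 are also given as a sum, which was 11, 44 and 33 reads, or 0.78, 2.69 and 1.90 CPM. HMGCLL1 (ENSG00000146151, chromosome 6, 55299167 to 55444012, minus strand), an extramitochondrial HMG-CoA lyase, had 0, 3 and 0 reads, so no fold is given, and the authors' group means were 0.36 and 2.85 scaled counts.

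The other genes around the pathway were taken from 7 lists with 65 genes, of which 64 were in the table and 57 were tested. Of these, 0 passed an adjusted p under 0.05 by edgeR and 2 by DESeq2, both lower in the resistant clones, SQLE among them, beside 0.613% and 1.67% of all genes. At an unadjusted p under 0.05 edgeR called 4 of the 57, all lower, among them SQLE, HMGCS1 and SIRT3, while 9.58% of all genes were called in either direction and 4.88% as lower. The edgeR count is thus near that over all genes. In CPM, both resistant libraries lay above the parental library for 12 of the 57 genes (21.1%) and below it for 25 (43.9%), beside 35.2% and 34.5% of all genes.

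The list from acetyl-CoA to HMG-CoA and its cleavage had a median log2 fold change of -0.13 over 6 tested genes. HMGCS1, the cytosolic HMG-CoA synthase of sterol synthesis, had 80.8 CPM in the parental library and 43.9 and 23.4 CPM in the resistant libraries. Its log2 fold change was -1.26 with an SE of 0.42 (edgeR's quasi-likelihood test, adjusted p = 0.37). The authors' group means, which take in the same libraries, gave -1.03. ACAT2, the cytosolic thiolase, had 57.4, 41.0 and 16.2 CPM and a log2 fold change of -1.01 with an SE of 0.51 (edgeR, adjusted p = 0.6). For both cytosolic enzymes the parental library was the highest and resistant library 2 the lowest. The fatty acid oxidation enzymes of the list were nearer to the parental level, with log2 fold changes of -0.22 for ACAA2, 0.02 for HADHA and -0.03 for HADHB.

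The list of genes that make cytosolic acetyl-CoA or turn it into lipid had a median log2 fold change of -0.31. In CPM, all 6 lay below the parental library in both resistant libraries, against 34.5% of all genes, but for ACLY this turned with the scaling: its FPKM was 205.8 in the parental library and 206.8 and 206.9 in the resistant libraries. In CPM, ACLY in resistant library 2 was within counting error of the parental library, at a ratio of 0.985 (0.962 to 1.01). SQLE, the squalene epoxidase of sterol synthesis, had 293.7, 125.0 and 82.5 CPM, a log2 fold change of -1.501 with an SE of 0.36 (edgeR, adjusted p = 0.169) and an adjusted p of 0.0283 by DESeq2. FASN, the fatty acid synthase, and ACSS2, which makes acetyl-CoA from acetate, had log2 fold changes of -0.34 and -0.28. SQLE thus passed over all genes by DESeq2 and not by edgeR.

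Among the 5 tested genes of ketone body transport, the lactate exporter SLC16A3 had 327.5, 467.6 and 647.1 CPM, a log2 fold change of 0.77 with an SE of 0.39 (edgeR, adjusted p = 0.603). SLC16A1, the monocarboxylate carrier for βHB and acetoacetate, had 156.4, 207.6 and 172.9 CPM, a log2 fold change of 0.28 (SE 0.34, edgeR, adjusted p = 0.903). Its direction was opposite in the authors' group means, at a log2 ratio of -0.06. EMB and BSG, partner proteins of these carriers, and the carrier SLC16A7 had log2 fold changes of -0.66, -0.01 and 0.09. HCAR2, the cell surface receptor of βHB, had 15.1, 10.3 and 2.65 CPM, a log2 fold change of -1.23 with an SE of 0.67 (edgeR, adjusted p = 0.637). Among the histone deacetylases, a class of enzymes that βHB can inhibit, HDAC3 had a log2 fold change of -0.64 (edgeR, adjusted p = 0.621), and HDAC2, HDAC8 and HDAC1 had -0.38, -0.27 and 0.19.

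The 17 genes of the tricarboxylic acid cycle, which supplies succinyl-CoA to OXCT1 and takes up the acetyl-CoA, were all tested and had a median log2 fold change of 0.09, with the highest value, 0.48, for the malate dehydrogenase MDH2. Citrate synthase, CS, had a log2 fold change of -0.50 and IDH3B, a subunit of isocitrate dehydrogenase, of -0.41. Leucine degradation, which ends in acetoacetate and acetyl-CoA, had a median of -0.12 over 8 tested genes, from AUH at -0.62 to BCKDHB at 0.60, with BCAT1 at -0.28 and MCCC2 at -0.22.

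Regulators of the enzymes had a median of -0.21 over 9 tested genes. SIRT3, the mitochondrial deacetylase, had 28.1, 14.3 and 12.6 CPM and a log2 fold change of -1.06 with an SE of 0.38 (edgeR, adjusted p = 0.414). RXRA, the partner of the nuclear receptors of fatty acids, and the coactivator PPARGC1B had log2 fold changes of -0.65 and -0.66. PPARGC1A was read in resistant library 2 alone, with 0, 0 and 31 reads, so its change rests on that library.

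**Figure D4:**
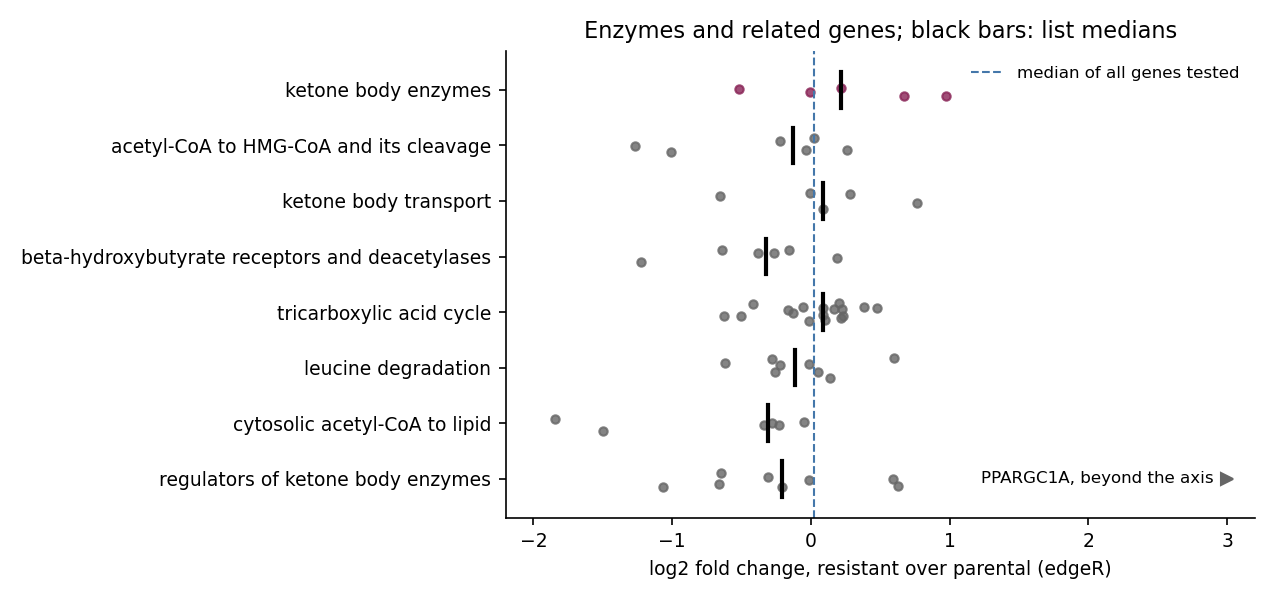
Points give edgeR's log2 fold change of resistant over parental (horizontal axis) for each tested gene of the ketone body enzymes and of 7 lists of related genes, black bars the median of each list and the dashed line the median of all genes tested. In the list of cytosolic acetyl-CoA to lipid SQLE lies at -1.501 and ACLY, whose direction turned with the scaling, at -0.05, and PPARGC1A lies beyond the axis.

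The genes of these lists whose pattern over the 3 libraries was most like that of OXCT1 were SUCLA2, HDAC1 and SUCLG2. Their distances to OXCT1 were 0.0748, 0.0982 and 0.101, in log2 CPM centred on the mean of each gene. SUCLA2 and SUCLG2 are alternative subunits, of separate forms of the enzyme that converts succinyl-CoA to succinate, and SUCLA2 had 12.8, 15.5 and 14.5 CPM. Over 3 libraries many genes are this alike, and 281 other tested genes were nearer to OXCT1 than SUCLA2.

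Each of the 7 enzymes lies on another chromosome, so their values were set beside those of genes around them. Within 1 Mb of BDH1 (distance between gene middles), 24 other genes were tested, with a median log2 fold change of 0.21 and 16 of them above 0, beside 0.98 for BDH1 and 0.07 for the 831 other tested genes of chromosome 3. The nearest tested gene below BDH1 in coordinate, AC128709.1 at 2797 bases, had 0.213, 1.04 and 0.863 CPM and a log2 fold change of 2.12 with an SE of 1.02 (edgeR, adjusted p = 0.579), and the nearest above, AC024560.3 at 4890 bases, had -0.28. Around OXCT1, 5 genes had a median of -0.07, beside -0.2969 over 644 other genes of chromosome 5. The nearest tested neighbours of OXCT1 were PLCXD3 (219437 bases away) at -1.15 and C5orf51 (33669 bases away) at 0.41. PLCXD3 was read weakly, at 1.13 CPM in the parental library and 0.612 and 0.403 CPM in the resistant libraries, and its SE was 0.82.

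Around ACAT1, 12 genes had a median of 0.11, while the 812 other genes of chromosome 11 had -0.31, and the nearest neighbours CUL5 and NPAT had 0.32 and 0.06. Around BDH2, 8 genes had a median of 0.15 on a chromosome with a median of 0.43. SLC9B2, which overlaps BDH2, had -0.63 (edgeR, adjusted p = 0.847). The nearest tested genes that do not overlap BDH2, CISD2 and CENPE, lay 190193 and 5923 bases away and had 0.12 and -0.32. Around AACS, 6 genes had a median of -0.05 beside -0.36 on chromosome 12, with the nearest tested neighbours BRI3BP (34148 bases away) at -0.13 and SLC15A4 (3649866 bases away) at -0.11. The nearest tested neighbours of OXCT2, apart from BMP8B, were PPIE and TRIT1, at -0.03 and -0.02. Those of HMGCLL1, RP3-523K23.2 and DST, lay 489270 and 878773 bases away and had 0.05 and 0.41.

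**Figure D5:**
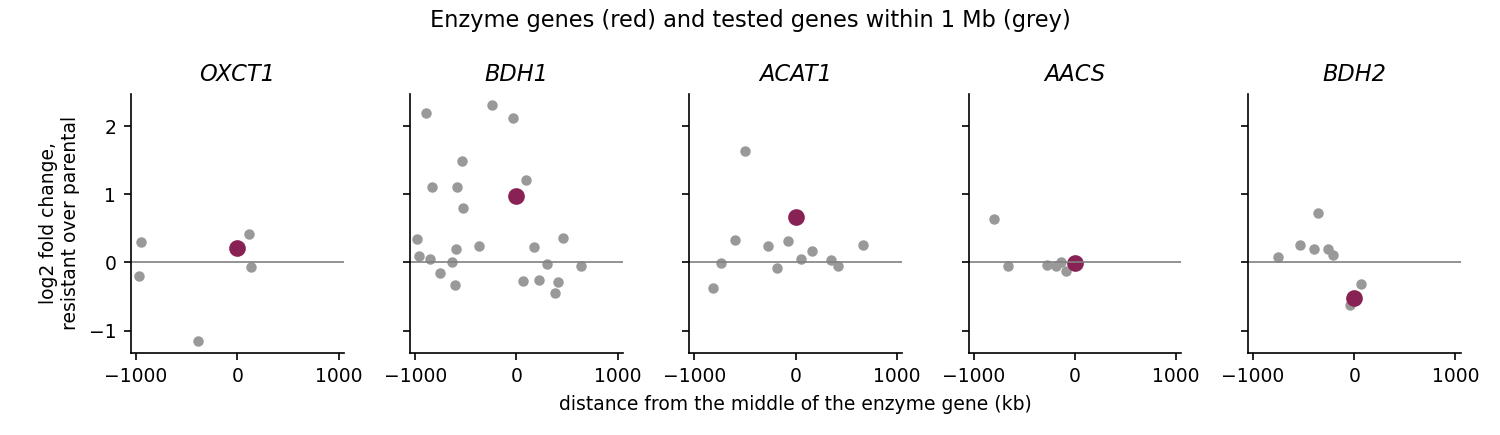
Each panel gives edgeR's log2 fold change of resistant over parental (vertical axis) against distance in kb from the middle of the enzyme gene (horizontal axis), with the enzyme as the large red point and other tested genes within 1 Mb in grey. BDH1, at 0.98, lies among 24 genes with a median of 0.21, and OXCT1, at 0.22, among 5 genes with a median of -0.07.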

How the data were processed

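RNA of the parental and resistant clones was sequenced as poly(A) libraries. Per the submitters' processing notes, hg19 and CASAVA 1.8 were used. Aligner, counting tool, strand setting and annotation are not given in the sources used here. The deposited counts are raw read counts per gene by the authors. The deposited FPKM are the authors' counts divided by gene length and by total counts on genes, which held on recomputing them to within 4.93e-09. The deposited group signal is the authors' mean of scaled counts per group, over the clones they pooled, the labelled ones included. The authors' log2 fold changes and p-values in the table were not used, nor were 6 columns of libraries without a label here.

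Genes with at least 30 reads summed over the 3 libraries were tested with edgeR 4.0.16 (R 4.3.3), TMM scaling and the quasi-likelihood test without covariates. Adjusted p-values are Benjamini-Hochberg values over all genes tested, at a threshold of 0.05. SE and 95% intervals of fold changes come from the same test. DESeq2 1.42.0 was an alternative. The log2 ratio of group means used a pseudocount of 1. Steps were tested on simulated data with a smaller spread than the real fit, whose common dispersion was 0.0545, and with changes planted only in well-read genes. That checks the steps and not how readily a change in these enzymes would be called. Sequences were aligned with Biopython 1.88.

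The enzymes and the gene lists were chosen with earlier results of these data known. Named genes were the 7 enzymes, HMGCS1, ACAT2, SLC16A1, up to 4 further genes per list by smallest p, 3 genes nearest to OXCT1 in pattern, genes overlapping an enzyme and its nearest tested neighbours. Other names (OXCT2P1, ACLY and the markers KRT5, KRT7, KRT8, KRT19, UPK1A, UPK1B, UPK2, UPK3A and COL1A1) were chosen after their values were seen. Some genes that this rule names are not reported here.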

Additional observations from a re-analysis of the deposited data

How the results depend on the processing

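The number of genes called over the whole table moved with the settings. Against 91 with TMM scaling (21 higher and 70 lower), it was 139 with size factors as in DESeq2 (43 higher), 248 with DESeq2 (122 higher and 126 lower), 78 with edgeR's legacy dispersion and 0 of 26434 genes without the filter on low counts, where 1261 had an unadjusted p under 0.05. That last setting tests more genes and moved the median log2 fold change of all genes from 0.03 to 0.12. No enzyme was called under any of these settings, with 1 called at an unadjusted p under 0.05 in each. Of the genes around the pathway, 2 were called with DESeq2 and 0 otherwise. Adjusted p-values of BDH1 ranged from 0.439 to 0.726 over the alternatives. Leaving out either resistant library leaves 1 against 1, a value with no test. The log2 fold change then ranged from 0.21 to 0.23 for OXCT1, from 0.88 to 1.07 for BDH1, from -0.88 to -0.23 for BDH2, from 0.46 to 0.86 for ACAT1 and from -0.27 to 0.22 for AACS, whose direction reversed without resistant replicate 2. The log2 ratio of AACS levels also reversed, to 0.055, with the authors' FPKM and with library totals in place of TMM scaling, where no other tested enzyme did. With a pseudocount of 5 the log2 ratio of the group means of OXCT2 went from 0.84 to 0.47. No paired analysis was run, since neither the labels nor the methods pair parental with resistant clones. With 1 parental clone, the spread among parental clones could not be estimated. OXCT2 and HMGCLL1 fell below the filter of 30 reads and entered a test only without it, where neither was called.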
